A study of Homo sapiens with 2 samples.

Results

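The genes described here are 32 genes of cholesterol synthesis, uptake and sensing, taken as a list of symbols from the 23686 gene symbols of the count and TPM tables. They comprise 20 synthesis enzymes, ordered by pathway step, and 12 genes of sterol sensing, uptake and transport. All 32 were found, SC5D under its older symbol SC5DL, and all 32 reached 1 CPM (1 read per 1000000 reads) in at least one library. They were thus among the 13131 genes compared. Not every enzyme and receptor of the pathway is on the list, and those outside it were not analysed here.

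The RNA came from A427, an established human line of non-small cell lung carcinoma that grows attached and as floating spheres, in medium with fetal bovine serum. The series title calls the line CTNNB1-mutated, and the labels give the genotype of both samples as WT without naming a gene. One group is adherent A427 cells and the other is floating, sphere-forming A427 cells, with 1 library of poly(A) RNA each and no other agent named in the labels. With no replicate, there is no SD and no p-value, and every difference below is a difference between these 2 libraries. Fold values and log2 ratios of single genes were computed from counts scaled for library size. They can therefore differ from the ratio of the TPM values printed beside them. A 95% interval beside the ratio of a single gene is an exact binomial interval for the reads of that gene. It covers counting error only and not the spread between cultures. It also treats reads as independent, though reads without molecular identifiers are not independent molecules. Because the libraries are bulk RNA, fewer cells that express a gene and less RNA per cell cannot be told apart.

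Cells make cholesterol from acetyl units in the cytosol and endoplasmic reticulum. The mevalonate steps give isoprenoid diphosphates, the squalene steps join and cyclise them to lanosterol, and the late sterol steps turn lanosterol into cholesterol. When the membrane of the endoplasmic reticulum is poor in sterol, SCAP escorts the precursor of SREBP-2 to the Golgi, where proteases free its active part, a transcription factor that acts on the genes of synthesis and uptake. When sterol is plentiful, INSIG proteins hold SCAP back, and oxysterols activate the LXR nuclear receptors, which act on genes of sterol efflux and degradation of lipoprotein receptors.

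The adherent library held 26384670 reads assigned to genes and the floating library 27148842. Of 5 epithelial markers, 3 were abundant: EPCAM stood at 615 and 582 TPM (transcripts per 1000000), KRT8 at 327 and 581 TPM and KRT18 at 342 and 613 TPM in adherent and floating cells. CDH1 stood at 18.9 and 13.9 TPM (log2 ratio -0.39, with an interval below 0), and KRT19 had 8 and 22 reads. Of the 4 lung lineage markers, SFTPC had 0 reads in both libraries, SFTPB had 0 and 1 and NKX2-1 had 3 and 13. NAPSA had 29 and 21 reads (log2 ratio -0.51, with an interval that included 0). Together the 4 came to 2.07 and 1.81 TPM. Summed over their markers, leukocyte genes came to 3.01 and 2.01 TPM, endothelial genes to 0.13 and 0.42 TPM, fibroblast genes to 0.64 and 0.51 TPM and hepatocyte genes to 0.12 and 0.15 TPM. Leukocyte PTPRC alone had 159 and 121 reads.

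Upstream sequences of the genes are shown because many members were lower together, and because SREBP-2 is known to act at promoters beside the factors NF-Y and Sp1. RefSeq promoters (build GRCh38.p14, 250 bases before to 50 after a start site) were matched for 28 of the 32 genes, with 40 promoters in all. ACAT2, FDFT1, SQLE and SCARB1 had no promoter entry. Each stretch below is the longest one free of annotated exons in the bases before the start, and for SREBF2 a window of 30 bases. Capitals mark CCAAT, the NF-Y box, on either strand (so also ATTGG), and in SREBF2 the letters TCACNCCAC, the core of an SREBP site. MVD, LSS and INSIG1 are among the 6 genes farthest below the adherent level, MSMO1 holds several boxes, and INSIG2 is the paralogue of INSIG1 without a match. The printed genes were picked and do not represent all 28. Of 21 genes with a box, 16 had an interval below 0, and of 7 with none, 3 did. CYP51A1, not printed, has no box and an interval below 0, and NSDHL has 5 boxes and an interval that included 0.
MVD, chr16:88663162-88663297, minus strand: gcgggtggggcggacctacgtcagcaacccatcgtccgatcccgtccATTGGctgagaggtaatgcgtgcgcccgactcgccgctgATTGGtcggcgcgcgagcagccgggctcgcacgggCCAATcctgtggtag
LSS, chr21:46228825-46229024, minus strand: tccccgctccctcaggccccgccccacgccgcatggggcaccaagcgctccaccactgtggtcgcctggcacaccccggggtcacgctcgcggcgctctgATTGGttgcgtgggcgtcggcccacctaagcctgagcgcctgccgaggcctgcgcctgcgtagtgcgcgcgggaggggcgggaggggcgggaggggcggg
MSMO1, chr4:165327419-165327622, plus strand: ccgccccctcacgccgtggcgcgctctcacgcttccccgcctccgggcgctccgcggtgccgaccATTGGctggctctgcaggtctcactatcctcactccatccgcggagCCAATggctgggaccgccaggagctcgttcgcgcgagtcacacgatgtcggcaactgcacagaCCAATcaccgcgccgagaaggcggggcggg
INSIG1, chr7:155297628-155297775, plus strand: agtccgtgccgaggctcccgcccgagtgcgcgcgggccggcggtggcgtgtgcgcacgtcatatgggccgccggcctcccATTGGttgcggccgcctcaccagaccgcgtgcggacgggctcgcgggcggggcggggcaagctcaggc
INSIG2, chr2:118088221-118088451, plus strand: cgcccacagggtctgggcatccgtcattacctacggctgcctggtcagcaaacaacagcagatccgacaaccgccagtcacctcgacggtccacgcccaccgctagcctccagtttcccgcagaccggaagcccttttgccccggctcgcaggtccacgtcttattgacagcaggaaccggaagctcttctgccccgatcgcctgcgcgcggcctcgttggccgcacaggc
SREBF2, chr22:41832962-41832991, plus strand: tgacgcgccaTCACCCCACgcaccgcttcg

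Most of the synthesis enzymes were lower in floating cells, by modest amounts of up to 1.49-fold (IDI1), and the sensing and transport genes were mixed. Summed over the 20 enzymes, the level was 2553 TPM in adherent cells and 2029 TPM in floating ones, so the floating library held 79.5% of the adherent sum. In reads, the enzymes took 0.243% of the adherent library (Clopper-Pearson interval 0.241 to 0.245) and 0.201% of the floating library (0.199 to 0.203). Expressed as log2 of floating over adherent, the ratio was below 0 for 18 of the 20 enzymes, and its interval lay wholly below 0 for 16 and above 0 for none. The median log2 ratio of the enzymes was -0.28. Over all tested genes the median was -0.005, and 25.6% of them had an interval below 0 and 25.5% one above 0. Interval width depends on the number of reads, and 29 of the 32 genes reached 20 CPM. Shares by interval alone were not computed among tested genes of like abundance. The log2 ratio lay under the lower quartile of all tested genes (-0.17) for 16 of the 20 enzymes.

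The 12 sensing, uptake and transport genes had a median log2 ratio of -0.10, with 6 intervals below 0, 3 above 0 and 3 that included 0, and 3 of the 12 lay under the lower quartile of all genes. Summed, they stood at 1343 TPM in adherent cells and 1191 TPM in floating ones, of which STARD4 made up the largest share. None of the 32 genes differed by 2-fold in either direction, a size that 0.754% of tested genes reached as lower and 1.28% as higher in floating cells. A smaller size was also counted, at which one library holds at least 25% more than the other and the interval excludes 0. By that rule 6 of the 32 were lower in floating cells (IDI1, MVD, TM7SF2, LSS, INSIG1 and SQLE), against 9.37% of tested genes. Among genes of at least 20 CPM the share was 7.11%, and 29 of the 32 genes, all 6 of these included, were of that abundance. One gene, NR1H3, was higher by that rule, against 9.18% of tested genes. Just inside the limit lay SQLE (1.29-fold lower) and just outside it MVK, SC5D and EBP (each 1.23-fold lower).

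**Figure D1:**
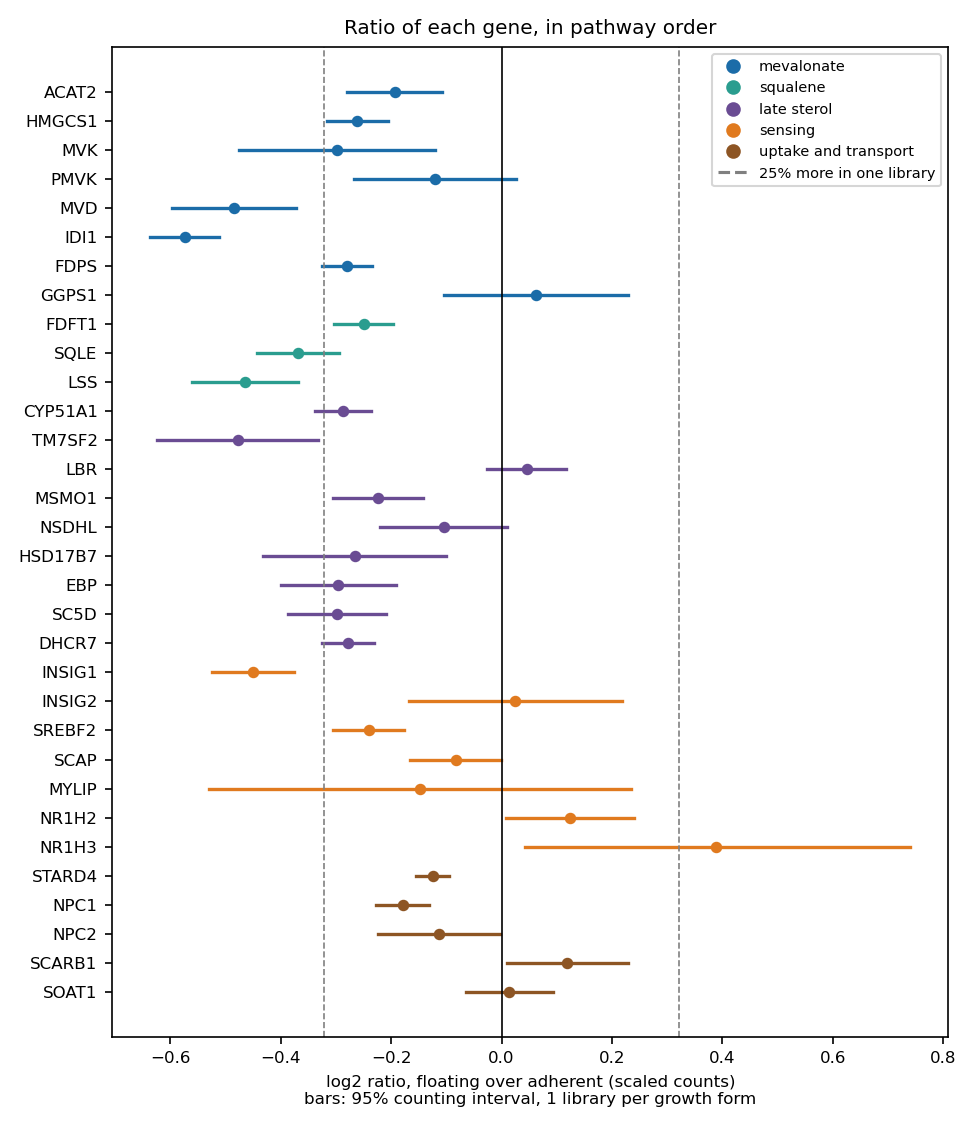
Log2 ratio of floating over adherent cells (horizontal axis, scaled counts) for each of the 32 genes in pathway order, with 95% counting intervals as bars and dashed lines where one library holds 25% more. Most enzymes of the mevalonate, squalene and late sterol steps lie left of 0, with IDI1 farthest at -0.57, whereas GGPS1, LBR, INSIG2, NR1H2, NR1H3, SCARB1 and SOAT1 lie right of it.

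**Figure D2:**
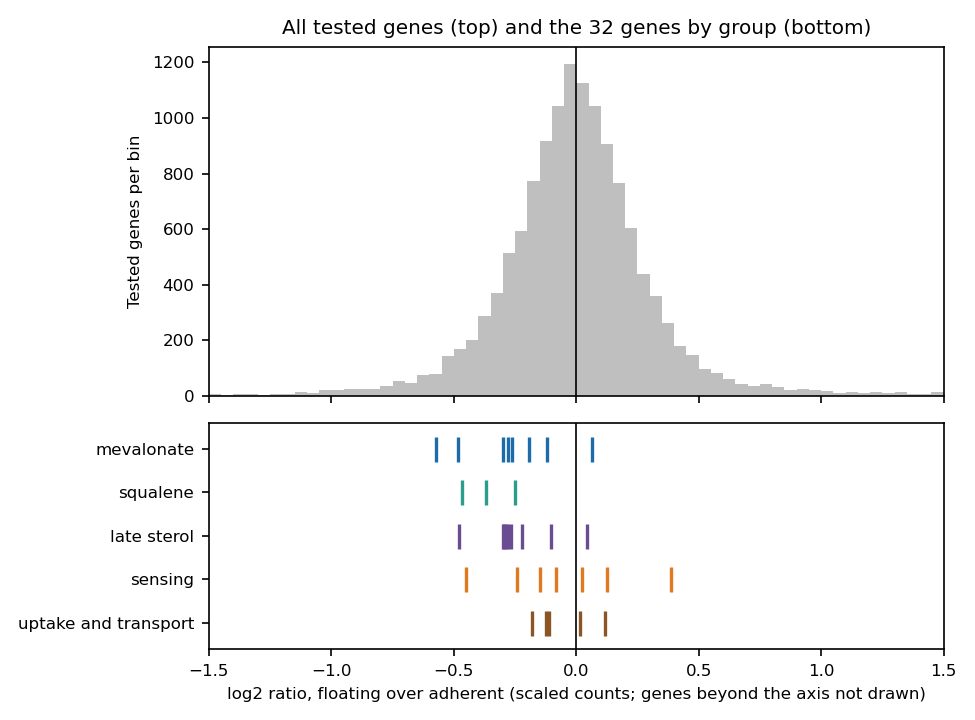
Number of tested genes by log2 ratio of floating over adherent cells in bins (top) and the ratios of the 32 genes as ticks by group (bottom). The bulk of all genes is centred on 0, and the ticks of the 3 synthesis groups gather left of 0 while sensing genes spread from -0.45 to 0.39.

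Of the 8 genes of the mevalonate steps, 6 had intervals below 0, and MVD and IDI1 were the farthest from equal levels. ACAT2, the cytosolic thiolase that joins acetyl units, stood at 137 TPM in adherent cells and 116 TPM in floating ones, 1.14-fold lower (interval 1.08 to 1.21). HMGCS1, the synthase of the next step, stood at 87.7 and 70.9 TPM, a log2 ratio of -0.26 (-0.32 to -0.21). The kinase MVK stood at 24.4 and 19.3 TPM, 1.23-fold lower (1.09 to 1.39). All 3 were thus lower by about the same factor, with intervals that overlap. The second kinase of the route, PMVK, had 784 and 746 reads, and its log2 ratio of -0.12 had an interval that included 0 (-0.27 to 0.03).

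The decarboxylase MVD, which makes isopentenyl diphosphate, stood at 76.7 TPM in adherent cells and 53.2 TPM in floating ones, 1.40-fold lower (interval 1.29 to 1.51). IDI1, the isomerase that acts on that product, stood at 208 and 136 TPM, 1.49-fold lower (1.43 to 1.55). IDI1 was the gene farthest from equal levels among the 32. FDPS, which condenses these units to farnesyl diphosphate, was the most abundant of the 20 listed enzymes, at 594 and 475 TPM, and its log2 ratio was -0.28 (-0.33 to -0.23).

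GGPS1, which draws farnesyl diphosphate off to geranylgeranyl diphosphate for protein prenylation, did not share this direction. It had 573 reads in adherent and 619 in floating cells, and its log2 ratio of 0.06 had an interval of -0.10 to 0.23. Compared directly, the floating-to-adherent ratio of FDPS was lower than that of GGPS1 by 0.34 on the log2 scale (Woolf interval of the ratio of ratios, -0.51 to -0.17), a value that does not depend on how libraries are scaled. GGPS1 shares 1422 annotated exon bases on the same strand with TBCE, which had 1291 and 1296 reads, and its part in the count of GGPS1 was not tested.

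All 3 enzymes of the squalene steps were lower in floating cells. FDFT1, squalene synthase, stood at 260 TPM in adherent cells and 212 TPM in floating ones, 1.19-fold lower (interval 1.15 to 1.23). SQLE, the epoxidase that adds oxygen to squalene, stood at 94.3 and 70.8 TPM, 1.29-fold lower (1.23 to 1.36). LSS, which folds the epoxide into lanosterol, stood at 41.5 and 28.8 TPM, 1.38-fold lower (1.29 to 1.47). LSS was the farthest from equal levels of the 3, and its interval did not overlap that of FDFT1.

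Of 9 late sterol enzymes, 7 had intervals below 0. CYP51A1, which removes the first methyl group of lanosterol, stood at 188 TPM in adherent cells and 149 TPM in floating ones, 1.22-fold lower (interval 1.18 to 1.26). DHCR7, which reduces 7-dehydrocholesterol to cholesterol, stood at 265 and 212 TPM, a log2 ratio of -0.28 (-0.32 to -0.23). These were the most abundant of the 9 listed late enzymes, and they were lower by nearly the same factor as FDPS. The sterol isomerase EBP (137 and 108 TPM), the desaturase SC5D (26.7 and 21.1 TPM) and the methyl oxidase MSMO1 (105 and 87.0 TPM) had log2 ratios of -0.30, -0.30 and -0.22. NSDHL, which acts with MSMO1 to remove methyl groups, had 1262 and 1214 reads and a log2 ratio of -0.10 whose interval included 0 (-0.22 to 0.01).

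The ketoreductase HSD17B7 had 646 estimated reads in adherent and 556 in floating cells, a log2 ratio of -0.27 (interval -0.43 to -0.10). Its estimates have decimals, and it has a similar pseudogene, HSD17B7P2, with 84.0 and 97.5 estimated reads. For the sum of both, the log2 ratio was -0.21 (-0.36 to -0.06).

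The sterol C14 reductases differed from each other. TM7SF2, which has this activity as its known role, stood at 52.7 TPM in adherent cells and 36.8 TPM in floating ones, 1.39-fold lower (interval 1.26 to 1.54). LBR, an inner nuclear membrane protein that binds lamin B and chromatin and has the same enzyme activity, stood at 66.8 TPM in adherent cells and 66.9 TPM in floating ones. Its log2 ratio on scaled counts was 0.05 (-0.03 to 0.12). The ratio of TM7SF2 was lower than that of LBR by 0.52 on the log2 scale (Woolf interval -0.68 to -0.36).

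**Figure D3:**
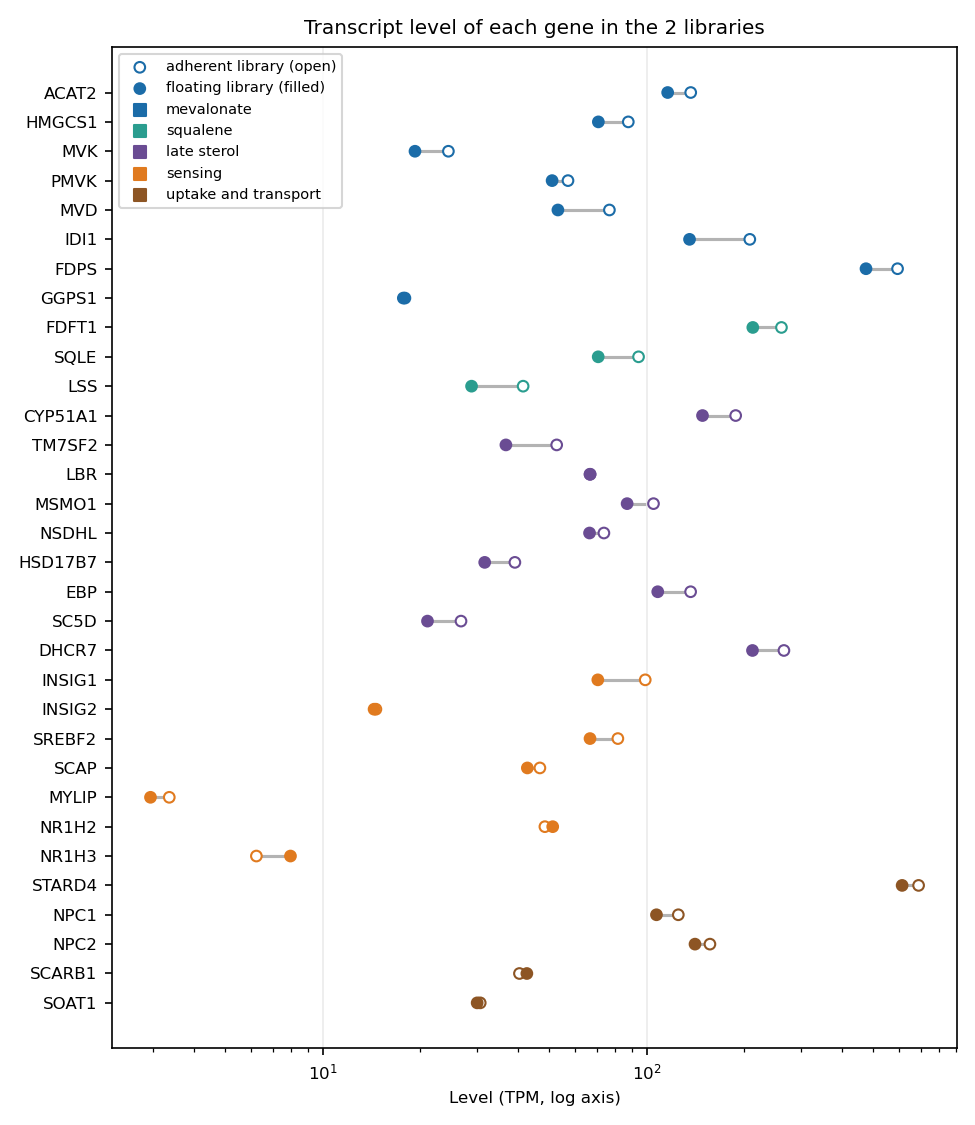
Level of each of the 32 genes in TPM (horizontal log axis), with open circles for the adherent and filled circles for the floating library, coloured by group. STARD4 and FDPS are the most abundant and MYLIP the least, and filled circles lie left of open ones for most enzymes, whereas those of GGPS1, LBR and INSIG2 nearly coincide on this scale.

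Among the sensing genes, INSIG1 and INSIG2 differed. INSIG1, which retains SCAP in the endoplasmic reticulum and is itself a known SREBP target, stood at 98.9 TPM in adherent cells and 70.6 TPM in floating ones, a log2 ratio of -0.45 (interval -0.52 to -0.38). INSIG2, which has the same retaining role, stood at 14.6 and 14.4 TPM, with a log2 ratio on scaled counts of 0.03 (-0.17 to 0.22). The ratio of INSIG1 was lower than that of INSIG2 by 0.48 on the log2 scale (Woolf interval -0.68 to -0.27). INSIG1 was the more abundant of the pair in both libraries.

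SREBF2, the gene of SREBP-2, stood at 81.4 TPM in adherent cells and 66.8 TPM in floating ones, 1.18-fold lower (interval 1.13 to 1.24). SCAP had 2383 and 2327 reads, and its log2 ratio of -0.08 had an interval whose upper end was -0.0003, so its count among genes below 0 depends on the scaling. MYLIP, a ubiquitin ligase that marks lipoprotein receptors for degradation and a known LXR target, was the least abundant of the 32 genes, with 121 and 113 reads, and its interval was wide (log2 -0.53 to 0.23). The LXR genes were higher in floating cells. NR1H2, which encodes the broadly expressed LXR beta, had 1148 and 1294 reads and a log2 ratio of 0.12 (0.01 to 0.24). NR1H3, which encodes LXR alpha, had 121 and 164 reads and a log2 ratio of 0.39 (0.04 to 0.74). The log2 ratio of NR1H2 minus that of NR1H3 was -0.27, with a Woolf interval of -0.62 to 0.09 that includes 0. With the scaling by upper quartile the interval of NR1H2 included 0, and with a trend over gene length removed the intervals of both LXR genes did.

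Genes of uptake and transport differed by less than most enzymes. STARD4, a soluble carrier that moves sterol between membranes and a known SREBP-2 target, was the most abundant gene of the 32, at 690 TPM in adherent cells and 614 TPM in floating ones. It was 1.09-fold lower (interval 1.07 to 1.11). Its antisense neighbour STARD4-AS1 had 635 and 206 reads, a log2 ratio of -1.67 (-1.91 to -1.44), and STARD4 had 17853 and 16939 reads. The 2 genes share 124 annotated exon bases on opposite strands. With strand use not given in the sources used here, reads from the shared bases cannot be told apart.

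NPC1, the membrane protein through which cholesterol leaves the lysosome, stood at 125 TPM in adherent cells and 107 TPM in floating ones, 1.13-fold lower (interval 1.09 to 1.17). NPC2, the soluble protein that hands cholesterol to NPC1, stood at 157 and 141 TPM, 1.08-fold lower (1.00 to 1.17). The interval of NPC2 included equal levels with DESeq2 size factors, library totals or only whole-number estimates. The log2 ratio of NPC1 minus that of NPC2 was -0.07, with a Woolf interval of -0.19 to 0.05 that includes 0. SCARB1, the receptor for high-density lipoprotein, had 1287 and 1446 reads and was on the higher side, with a log2 ratio of 0.12 (0.01 to 0.23). SOAT1, which esterifies cholesterol for storage, had 2587 and 2703 reads, with a log2 ratio of 0.01 (-0.06 to 0.09).

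Several members overlap exons of an opposite-strand neighbour. ACAT2 shares 1141 exon bases with SOD2, which had 1221 and 1376 reads and a log2 ratio of 0.12 (interval 0.01 to 0.24). It shares another 397 with TCP1, which had 13267 and 15723 reads and a log2 ratio of 0.20 (interval 0.16 to 0.23). The ratio of ACAT2 was lower than that of TCP1 by 0.39 on the log2 scale (Woolf interval -0.48 to -0.30). NPC1 shares 604 with C18orf8 (log2 ratio 0.20), NPC2 shares 103 with ISCA2 (0.21), GGPS1 shares 138 with ARID4B (-0.34) and NR1H3 shares 189 with ACP2 (-0.29). In all of these the neighbour's ratio had the sign opposite to the member's. MVK shares 306 with MMAB, whose log2 ratio of -0.14 (-0.30 to 0.01) had the sign of MVK. The part of any neighbour in a member's count was not tested.

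In the promoters, CCAAT was found in 16 of 24 promoters of synthesis enzymes and in 7 of 16 promoters of the other genes. Over all promoters in the RefSeq table it was found in 34.6%, and over those of tested genes in 34.5%. Counted by gene, 14 of 17 matched synthesis enzymes and 7 of 11 matched other genes had at least one, against 43.3% of tested genes. MVK and NSDHL had 5 boxes each in their single promoters, and MSMO1 had 4. Of the 49 boxes found in member promoters, where overlapping promoters of a gene can count a box again, 44 began within the 200 bases before the start site. The 21 genes with a box had a median log2 ratio of -0.27 (range -0.57 to 0.39) and the 7 without one a median of -0.08 (-0.29 to 0.12). Of the 21, 14 were synthesis enzymes, so box and group cannot be told apart in this split. The same split was not made over all tested genes.

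The SREBP core letters TCACNCCAC were found in 1 of the 40 promoters, that of SREBF2, where they began at position -133 from the start site, and a CCAAT box began at -106. They occurred in 1.13% of all promoters and 1.06% of those of tested genes. GGGCGG, the Sp1 box, was found in 34 of 40 member promoters and in 66.9% of those of tested genes. It was in 20 of 24 promoters of synthesis enzymes and in 14 of 16 of the other genes. Counted by gene, 26 of 28 had at least one, against 78.7% of tested genes. A match is a description of the letters, not of a bound site, and no match says only that these letters are not in these windows on either strand.

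**Figure D4:**
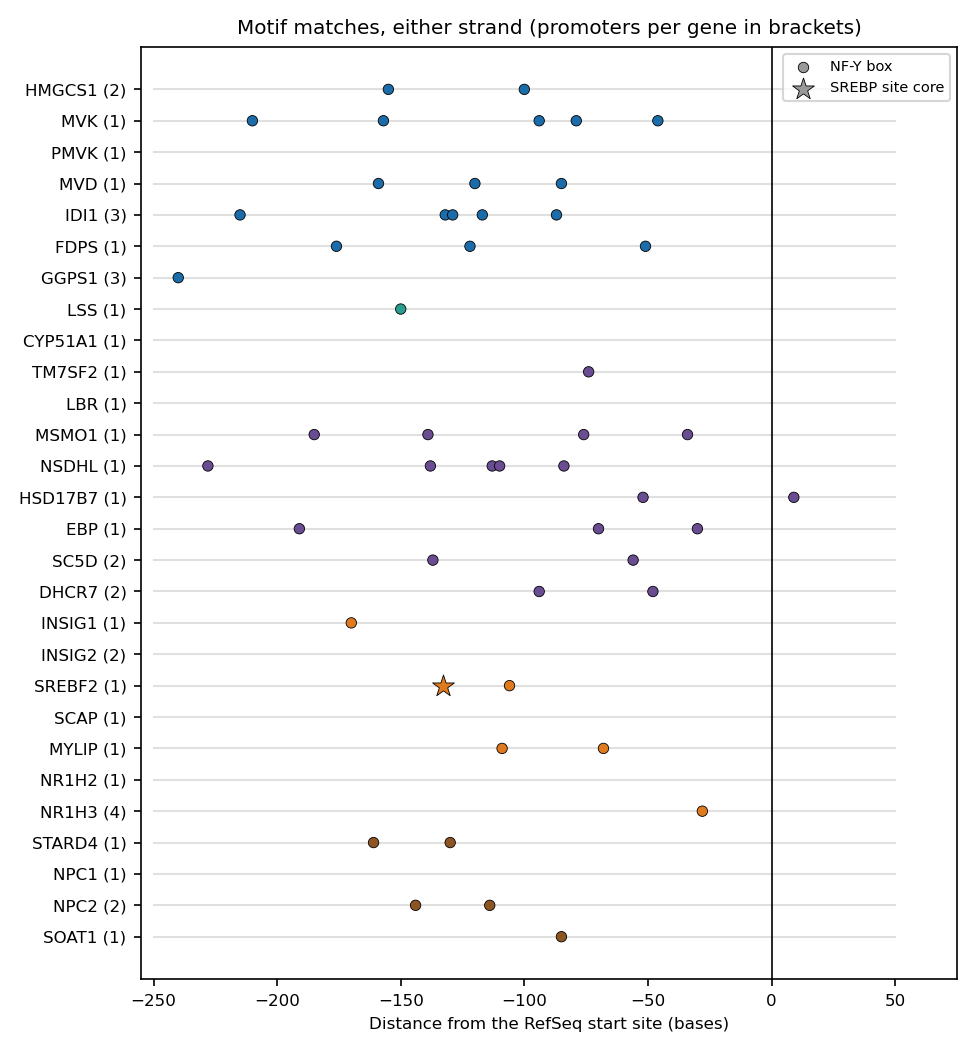
Position of CCAAT matches (circles) and TCACNCCAC matches (star) relative to the RefSeq start site in bases, for the 28 genes with a promoter, all promoters of a gene drawn on one line and coloured by group. Circles gather in the 200 bases before the start for most synthesis enzymes, and PMVK, CYP51A1, LBR, INSIG2, SCAP, NR1H2 and NPC1 have none.

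Other genes around the pathway were counted from lists, to be read beside the 25.6% of all tested genes with an interval below 0 and the 25.5% with one above 0. Those shares cover genes of every abundance from 1 CPM, not genes matched to a list. Of 12 regulators of SREBP processing and of sterol control in the endoplasmic reticulum, 4 had intervals below 0 and 3 above 0, with a median log2 ratio of -0.04. These counts are near the shares of all tested genes. SREBF1, the gene of SREBP-1, was the farthest from equal levels, at 38.6 TPM in adherent cells and 23.9 TPM in floating ones (log2 ratio -0.65, interval -0.74 to -0.56). MBTPS1, the protease that makes the first cut in SREBP, stood at 77.4 TPM in adherent cells and 61.0 TPM in floating ones, 1.23-fold lower (interval 1.18 to 1.29). ERLIN1, a membrane scaffold of the endoplasmic reticulum, stood at 64.2 and 72.6 TPM, a log2 ratio of 0.22 (0.14 to 0.30).

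The isoprenoid branch, which uses farnesyl and geranylgeranyl diphosphate for ubiquinone, dolichol and protein prenylation, had more genes above 0 than below. Of its 14 genes, 7 had intervals above 0, against 25.5% of tested genes, and 1 below 0, against 25.6%, with a median log2 ratio of 0.11. PDSS2 and COQ2, which act in ubiquinone synthesis, had log2 ratios of 0.38 (interval 0.20 to 0.56) and 0.35 (0.16 to 0.53). ICMT, which methylates prenylated proteins, stood at 63.1 and 69.9 TPM, a log2 ratio of 0.19 (0.13 to 0.26). Of 19 tested sterol transfer genes, 5 had intervals above 0 and 5 below 0 (median 0.06), about the share of all tested genes in each direction. In that list the oxysterol-binding relatives OSBPL6 (log2 ratio 0.49) and OSBPL5 (-0.42) lay on opposite sides. The endocytic receptor LRP1 stood at 45.0 and 29.8 TPM, 1.46-fold lower (1.42 to 1.51).

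Targets of SREBP-1 in fatty acid synthesis were lower, with 8 of 10 intervals below 0, none above and a median log2 ratio of -0.32. SCD, FADS2 and SREBF1 had log2 ratios of -1.24, -0.86 and -0.65, each farther from 0 than that of any of the 20 listed enzymes of cholesterol synthesis. Of 6 tested LXR target genes, 4 had intervals below 0 and 1 above, with a median of -0.40. ABCG1, one of those below 0, had 51 and 32 reads (log2 ratio -0.71, interval -1.41 to -0.06). ABCA1, with 0 reads in both libraries, and PLTP, with 13 and 12, were not tested. SREBF1 is also one of the 12 regulators above. The LXR list shares SCD and SREBF1 with the SREBP-1 list and NR1H3 and MYLIP with the sensing genes. Its remaining gene of at least 10 CPM was LPCAT3, at 106 and 94.6 TPM (log2 ratio -0.13, interval -0.20 to -0.05).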

How the data were processed

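Among the software in the submitters' processing notes are STAR 2.5.3a, RSEM 1.3.3 and FastQC 0.11.1, with hg19 as build. Annotation and counting parameters: not given in the sources used here. As raw values the deposited tables hold estimated counts per gene, and beside them TPM, which the authors scaled to about 1000000 per library. Estimated counts were rounded. Libraries were scaled by TMM over all genes (edgeR 4.0.16, R 4.3.3). The log2 ratio used (count + 0.5) per effective library size, for genes that reached 1 CPM in either library, with a Clopper-Pearson 95% interval of the gene's reads. The ratio was checked on simulated counts. With 1 library per group, no test across genes was run.

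Members, lists, motifs and thresholds were chosen with earlier results of these data known. All members were named, and up to 3 genes of at least 10 CPM from each other list, by the interval bound nearest 0. Pairs compared, overlapping neighbours and printed promoters were chosen after values were seen. Promoters are from RefSeq, exons from GENCODE release 29. Exon overlaps come from another build than the files' and were used for names and shared lengths. Other settings tried were size factors of DESeq2 1.42.0, totals per library, upper quartile, TPM (log2 of TPM + 0.1), a prior count of 5, other filters, whole-number estimates and the removal of length or GC trends (Python 3.11.15, statsmodels 0.14.6).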

Additional observations from a re-analysis of the deposited data

How the results depend on the processing

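The median log2 ratio of the 20 synthesis enzymes and that of the 12 other genes stayed below 0 under each of the 10 alternatives. Of single genes, 25 were below 0 and 5 above 0 under every alternative that gave them a value. INSIG2 (-0.02) and SOAT1 (-0.03) changed sign on the deposited TPM, where the median of all tested genes was itself -0.05, and neither interval had left 0. On TPM, the values of CYP51A1 (-0.34) and STARD4 (-0.17) lay outside their intervals from scaled counts. So did those of FDPS (-0.36) and NPC2 (-0.24) with the length trend removed. The number of genes lower with at least 25% more in adherent cells was 6 on scaled counts and 10 with the length trend removed. On TPM, where no interval was computed and size alone was used, the number was 12. After the median of all genes was subtracted on TPM it was 6, again by size alone. With the limit at 1.5-fold the number was 0 on scaled counts. IDI1 passed that limit on TPM (-0.62), by upper quartile (-0.59) and after removing the length trend (-0.60). SCAP and NPC2 no longer had intervals below 0 with DESeq2 size factors, library totals or whole-number estimates. This left 20 such genes with either of the scalings, against 22. It left 19 with whole-number estimates, where HSD17B7 also had no value. The interval of SCAP also included 0 with the length or the GC trend removed. In the other direction, PMVK and NSDHL gained intervals below 0 with the length trend removed, and NSDHL also by upper quartile. SCARB1 and NR1H2 lost intervals above 0 with the upper quartile. The removal of a GC trend was chosen after seeing the data. With estimates that are whole numbers HSD17B7 had no value, and with at least 5 CPM MYLIP had none. No paired analysis was possible because each growth form has 1 library. Counting error limits MYLIP and NR1H3, and the spread between cultures was not measured for any gene.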
